A study of Mus musculus with 9 samples.

Results

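Cells sorted from metastasis-bearing mouse lungs as eosinophils were compared by their surface level of Siglec-F. The 3 libraries labelled Siglec-F high, called high libraries below, were set against the 3 libraries labelled Siglec-F int (intermediate), called int libraries. They are 6 of the 9 RNA sequencing libraries of the series, and the remaining 3 came from lungs of mice given saline alone. All 6 came from C57BL/6 mice that received PyMT tumour cells, a line named for the polyoma middle T oncogene, in 200 µl of saline through the tail vein. Both groups thus share the tumour cells and the route and differ in the sorting gate alone, as far as the labels say. Each library pooled the sorted cells of 3 to 4 mice, so n counts pools, and the labels do not say whether a high and an int pool came from the same mice. After entries with a name turned into a date and duplicate entries were left out, 13387 of 54361 genes had a mean of at least 5 normalized counts over the 6 libraries and were compared.

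Eosinophils are granulocytes that depend on interleukin 5 and carry cationic granule proteins. In mouse lung, Siglec-F, an inhibitory lectin that binds sialic acid, is found on eosinophils and on alveolar macrophages. Resident eosinophils of the lung are known for a lower surface level of Siglec-F than eosinophils recruited in inflammation, which also gain CD101.

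The 6 libraries held between 4941900 and 12495639 reads, and every int library was deeper than every high library. High library 1 stood apart from the other 5. It had no read for 1008 of the genes compared, where the others had none for 104 to 279, and 31.1% of its total came from mitochondrial genes, against 13.9% to 19.8% in the others. Across genes, its log2 values had a Pearson correlation of 0.66 to 0.73 with those of each of the other 5, which correlated at 0.88 to 0.95 among themselves. It was the lowest of the 6 for 5143 genes and the highest for 4585. The median SD within a group was 0.76 on the log2 scale for the 3 high libraries, 0.33 for high libraries 2 and 3 alone, and 0.39 for the 3 int libraries. Int library 2 was next, as the highest of the 6 for 2998 genes. Many results below are also given without 1 or both of these libraries.

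**Figure D1:**
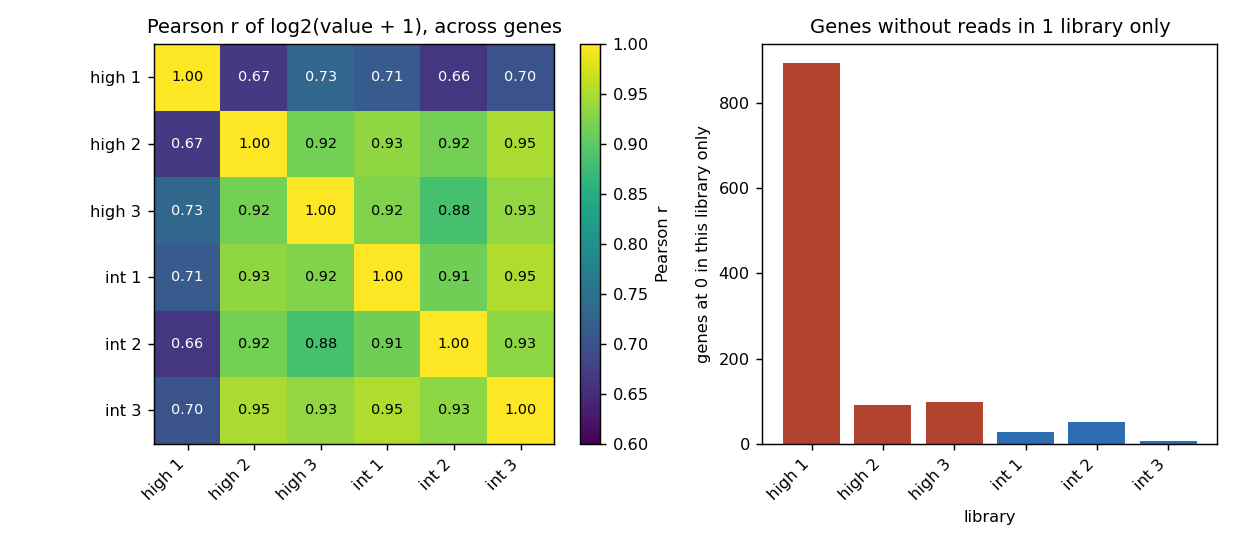
Left, Pearson correlation of log2(value + 1) across the 13387 genes compared for each pair of the 6 libraries; right, the number of genes at 0 in that library and in no other (bars, high in red and int in blue). High library 1 has the lowest correlations, 0.66 to 0.73, and 894 genes at 0 there alone, against 7 to 97 in each other library.

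The defining genes of eosinophils were scarce in both groups. Siglecf encodes the lectin that the cells were sorted by (ENSMUSG00000039013.16, chromosome 7, 43351341 to 43359531, all positions on GRCm38). Its level was 17.6, 3.58 and 14.5 in the high libraries and 6.98, 20.2 and 11.1 in the int libraries, in normalized counts as for all levels below, from 39 and 96 reads. The groups overlapped fully, and its log2 fold change between high and int was -0.21 ± 0.80 (SE), with a sign that changed when high library 2 was left out (0.42). Ccr3, the eotaxin receptor, stood at 24.1, 0 and 5.97 in the high libraries and 0, 3.37 and 7.91 in the int libraries. Epx, eosinophil peroxidase, was read in high library 3 (17.1) and int library 3 (5.06) and was at 0 in the other 4 libraries. Prg2, the major basic protein of the granules, stood at 6.58, 0.60 and 379.5 in the high libraries and 3.76, 8.0 and 106 in the int libraries, so that the number 3 library of each group was far above the rest. Il5ra, a chain of the interleukin 5 receptor, was at 6.01 or less in every library and below the filter. Of the 20 genes on the eosinophil list, 14 passed the filter, 1 was higher in all 3 high libraries (Ear2) and 1 lower (Csf2rb), and the list median was 0.13. That median was -0.14 without high library 1, 0.45 without int library 2 and -0.02 without both.

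Cd101, the surface protein gained by inflammatory eosinophils, stood at 26.3, 21.5 and 5.97 in the high libraries and 22.6, 57.7 and 29.7 in the int libraries. The groups overlapped, with a log2 fold change of -1.10 ± 0.70. Ptprc, the pan-leukocyte antigen CD45, was present throughout, at 1244, 656 and 825 in the high libraries and 1129, 2358 and 1014 in the int libraries. Il1rl1, the interleukin 33 receptor ST2, was well read at 6981, 3195 and 3779 in the high libraries and 3783, 1825 and 3038 in the int libraries and also overlapped.

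Markers of other cell types were read beside those of eosinophils. The 20 eosinophil genes summed to 11861, 5469 and 6861 in the high libraries and 6542, 8149 and 6230 in the int libraries. Fibroblast and smooth muscle markers summed to 39396, 26659 and 30335 in the high libraries and 27654, 11400 and 23271 in the int libraries. Red cell and platelet markers summed to 12884, 12935 and 26362 in the high libraries and 22581, 5170 and 19290 in the int libraries. All these sums overlapped between groups. The summed level of 20 monocyte and interstitial macrophage markers was 24664, 47476 and 37903 in the high libraries and 42627, 145860.0 and 52971 in the int libraries. Int library 2 was the highest of the 6 for 17 of the 19 such genes that passed the filter. The summed epithelial markers stood at 8928, 8759 and 8492 in the high libraries and 6093, 5647 and 5469 in the int libraries, with every high library above every int library. Scgb1a1 alone made up 5260, 4085 and 4612 of the high sums and 2889, 2081 and 2029 of the int sums. Of the 18 epithelial markers tested, 13 overlapped. The summed alveolar macrophage markers stood at 13009, 11610.3 and 10787 in the high libraries and 7198, 9499 and 8151 in the int libraries, sums again without overlap. Chil3 alone made up 5839, 4709 and 4525 of the high sums and 1962, 2448 and 2242 of the int sums. Of the 18 alveolar macrophage markers tested, 15 overlapped. The summed neutrophil markers stood at 4481, 3001 and 5251 in the high libraries and 2828, 1754 and 2688 in the int libraries, sums also without overlap. Of the 11 neutrophil markers tested, 9 overlapped, and only S100a8 and S100a9 did not. The defining neutrophil genes Ly6g and Mpo were at 8.43 or less in every library. In sorted bulk samples, fewer cells of a type and less RNA per cell cannot be told apart. The part of other cell types in the differences below was not tested.

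**Figure D2:**
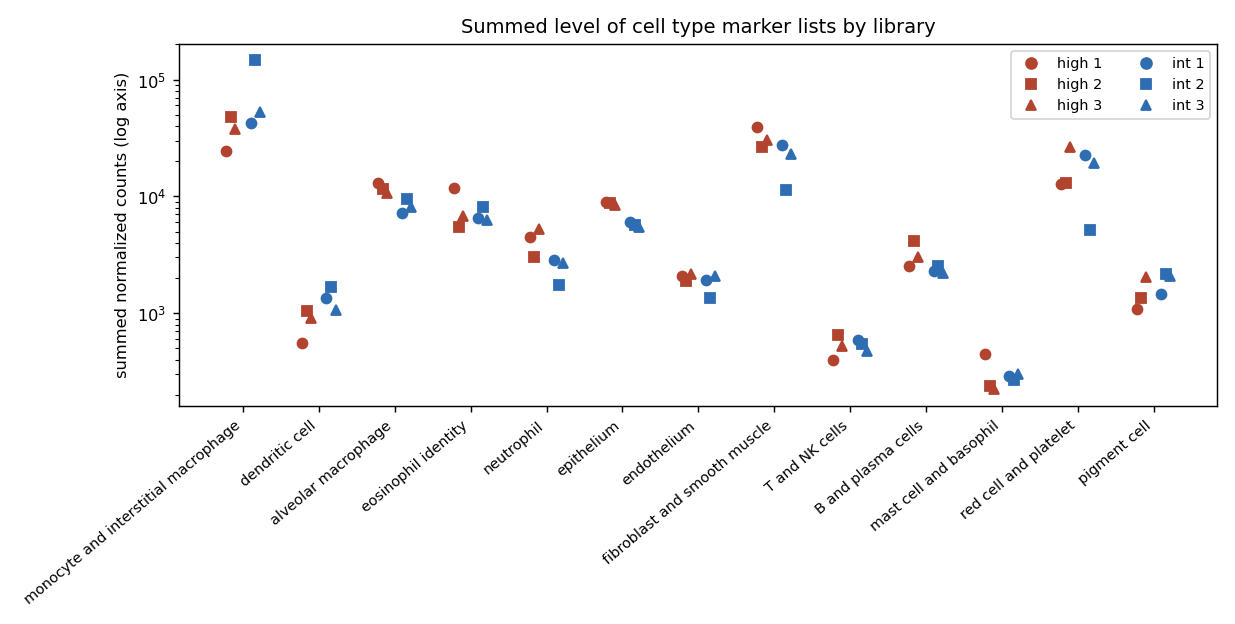
Summed normalized counts (log axis) of 13 cell type marker lists, 1 point per library, high in red and int in blue, with circles, squares and triangles for libraries 1, 2 and 3. Int library 2 (blue squares) has the highest sum of monocyte and interstitial macrophage markers, 145860. The 3 high libraries lie above the 3 int libraries for the epithelial, alveolar macrophage and neutrophil sums. Single abundant genes weigh heavily in these, namely Scgb1a1, Chil3, and S100a8 with S100a9, and most members of each list overlap.

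Over all genes, no difference between Siglec-F high and int passed the test. limma called 0 of 13387 genes (0% at an adjusted p of 0.05), with a smallest adjusted p of 0.794. At an unadjusted p under 0.05 it counted 439 genes, of which 183 were higher and 256 lower in high. edgeR on the recovered reads also called 0 genes, with 493 at an unadjusted p under 0.05, and DESeq2 called 11. An exact two-sided permutation test of 3 libraries against 3 cannot give a p below 0.1 for a single gene. The log2 fold changes had a median of -0.07 and a median 95% interval of ± 1.27. That interval lay within a 2-fold difference for 1467 genes (10.96%) and within a 4-fold difference for 7641 (57.1%). Among the 5402 genes averaging 100 or more, it lay within 2-fold for 24.5%, and for 55.0% when high library 1 was left out.

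As a description, genes were counted whose 3 high libraries all lay on 1 side of the 3 int libraries. All 3 high values were above all 3 int values for 763 genes (5.70%) and below them for 745 (5.57%). Full separation in either direction is the outcome that gives the smallest exact p of 0.1. Without any difference between the groups, a share of about 0.1 would separate, both directions together. Counts of list members below are to be read against these shares. Without high library 1 the counts over all genes were 1510 (11.3%) and 1440 (10.8%), with fewer libraries to separate. The balance of directions depended on the scaling. With equal totals it was 504 above and 1022 below, and with libraries thinned to equal depth 536 and 960, where the median of all genes moved from -0.07 to -0.19 in both cases. All genes named below were chosen by a rule on size and separation or from lists, except where stated, and none passed limma's test.

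**Figure D3:**
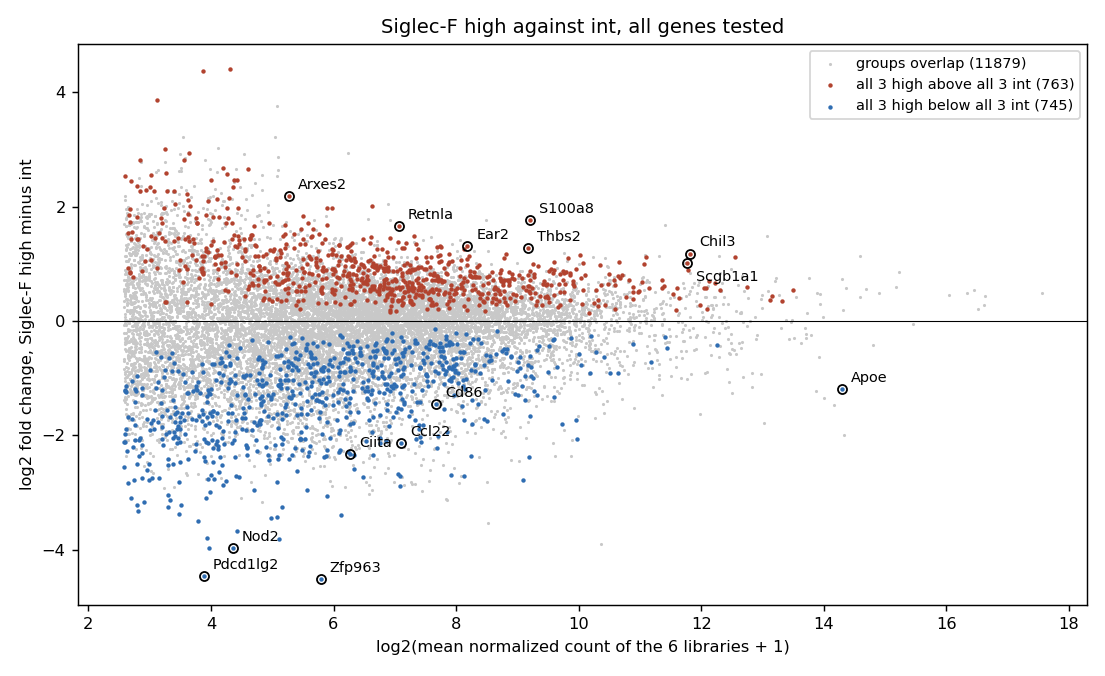
Log2 fold change of each of 13387 genes (high minus int, on log2(value + 1)) against the log2 mean level. Red points are the 763 genes with all 3 high libraries above all 3 int libraries, blue points the 745 with all 3 below, and grey points the genes whose groups overlap; Chil3, Scgb1a1, Retnla and S100a8 lie above 0, and Ciita, Ccl22, Nod2 and Pdcd1lg2 below.

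The genes of antigen presentation to CD4 T cells had the lowest list median of the 36 lists, and Ciita, their master regulator, was lower in every high library. MHC class II molecules display peptides to CD4 T cells, and their genes share a promoter module that ends in a Y box, CCAAT on either strand, bound by NF-Y, upstream of which the X box recruits the complex that holds CIITA. The stretches shown carry that shared element in 4 class II genes of the list, each of which was highest of the 6 in int library 2. They are 100-base stretches that end 0 to 11 bases before the start of each gene, from RefSeq, GRCm38.p6, with CCAAT or its complement ATTGG in capitals. They lie at chr17:34287824-34287923 on the minus strand for H2-Aa, chr17:34305767-34305866 on the plus strand for H2-Eb1, chr17:34153080-34153179 on the plus strand for H2-DMb1 and chr17:34238798-34238897 on the plus strand for H2-Ob.
H2-Aa: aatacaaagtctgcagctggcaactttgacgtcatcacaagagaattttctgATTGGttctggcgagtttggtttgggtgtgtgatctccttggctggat
H2-Eb1: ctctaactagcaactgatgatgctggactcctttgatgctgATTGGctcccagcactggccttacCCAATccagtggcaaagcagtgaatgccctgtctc
H2-DMb1: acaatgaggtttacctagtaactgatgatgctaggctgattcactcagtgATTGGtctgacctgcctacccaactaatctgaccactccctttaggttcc
H2-Ob: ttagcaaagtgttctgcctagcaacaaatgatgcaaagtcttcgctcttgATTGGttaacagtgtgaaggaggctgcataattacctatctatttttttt
The motif nearest the transcription start begins 35 to 61 bases before it in these 4 genes, where the 35 is the nearer of 2 boxes in H2-Eb1. In H2-Oa, H2-DMb2 and H2-DMa, whose stretches are not shown, the motif begins 43, 90 and 198 bases before the start. It was found within 250 bases before the start in 7 of the 10 list members present in the RefSeq table, namely all 7 H2 genes among them. It was also in 33.8% of all 32851 windows of that length and in at least 1 window of 37.5% of all gene symbols. A match of these letters is a description and not a measured binding site.

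Ciita, the transactivator that switches on class II genes (ENSMUSG00000022504.10, chromosome 16, 10480059 to 10528418), stood at 35.1, 35.8 and 10.2 in the high libraries and 104, 163 and 110.1 in the int libraries. Every high library was far below every int library. Its log2 fold change was -2.33 ± 0.56, with a 95% interval of -3.63 to -1.04, and -2.61 without high library 1. The class II chains themselves overlapped, and were looked at after the values were seen. H2-Aa, an alpha chain, stood at 9228, 16094 and 3357 in the high libraries and 13402, 53678 and 14614 in the int libraries, a log2 fold change of -1.47 ± 0.71. H2-Eb1, a beta chain, stood at 3771, 19011 and 3855 in the high libraries and 13943, 63286 and 19694 in the int libraries, a log2 fold change of -1.99 ± 0.77. Without high library 1 and int library 2 the log2 fold changes of H2-Aa and H2-Eb1 were -0.93 and -0.95. High library 2 reached the range of int libraries 1 and 3 for both, and int library 2 was far above all. H2-Ab1, a further beta chain, stood at 8113, 16358 and 3153 in the high libraries and 12091, 46651 and 12132 in the int libraries in the same order. H2-DMa, part of the complex that loads peptide onto class II, stood at 25.2, 419 and 139.9 in the high libraries and 463, 1441 and 358 in the int libraries, with high library 1 the lowest by far.

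Of the 15 genes on the class II presentation list, all tested, 14 had a negative fold change. Without overlap, 3 were lower in high (Ciita, Cd86 and Cd40, 20% of the list) and none higher. None of these 3 encodes a class II chain, and Cd86 and Cd40 are also on the checkpoint, adhesion and activation list below. The list median was -1.60, against -0.07 for all genes. It was -1.35 without high library 1, -1.06 without int library 2 and -0.75 without both. Int library 2 was the highest of the 6 for 14 of the 15 genes. That library was also the highest for 17 of 19 monocyte and interstitial macrophage markers, whose list median was -0.80 with all libraries, -0.28 without int library 2 and -0.12 without both. C1qb encodes a complement component of macrophages and was picked with its values in view, and it stood at 897, 6510.0 and 3835 in the high libraries and 5116, 27139 and 6639 in the int libraries. The list of 10 tested dendritic cell markers had a median of -0.86, and -0.34 without both libraries. Of its members Batf3, a transcription factor of cross-presenting dendritic cells, stood at 0, 9.55 and 6.82 in the high libraries and 13.96, 16.4 and 13.6 in the int libraries, and Dpp4, a surface peptidase, at 7.68, 20.9 and 11.1 in the high libraries and 34.4, 40.02 and 26.2 in the int libraries. All 3 high libraries lay below all 3 int libraries for both genes, at low levels.

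Several surface molecules that regulate T cells were also lower in every high library. Pdcd1lg2, which encodes the checkpoint ligand PD-L2 (ENSMUSG00000016498.9, chromosome 19, 29410919 to 29471161), stood at 0, 0.60 and 0 in the high libraries and 35.97, 33.7 and 12.3 in the int libraries. It rested on 1 read in the high libraries and 186 in the int libraries, which is a ratio of 94.5 in favour of int with a 95% counting interval of 16.8 to 3754. DESeq2 called it with an adjusted p of 0.0179, and limma did not (log2 fold change -4.46 ± 0.86). Cd274, which encodes PD-L1 and neighbours Pdcd1lg2, stood at 85.5, 68.01 and 54.6 in the high libraries and 105, 246 and 163 in the int libraries. Its groups did not overlap, with a log2 fold change of -1.23 ± 0.42 and -1.09 without high library 1 and int library 2. Cd86, a costimulatory ligand of CD28, stood at 84.5, 119 and 90.4 in the high libraries and 159, 543 and 224 in the int libraries. Its log2 fold change was -1.46 ± 0.48, and -0.85 without both libraries. Cd40, the receptor by which T cells license antigen-presenting cells, stood at 2.19, 56.1 and 57.1 in the high libraries and 119, 179 and 62.6 in the int libraries. High library 1 was near 0 for Cd40, and high library 3 lay close to int library 3. Itgax, the integrin CD11c of macrophages and dendritic cells, stood at 371, 306 and 151 in the high libraries and 393, 1265 and 498 in the int libraries, without overlap. Tnfsf10, the death ligand TRAIL, went the other way, at 105, 38.8 and 38.4 in the high libraries and 21.5, 21.1 and 13.3 in the int libraries, a log2 fold change of 1.52 ± 0.56. Of the 28 tested genes on the list of checkpoint, adhesion and activation molecules, 6 were lower without overlap (21.4%) and 1 higher (3.57%). Their median was -0.66, -0.16 without int library 2 and -0.05 without both libraries.

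Genes of the interferon response were lower on median in high, and this too moved with int library 2. Of 25 tested genes of interferon-gamma signalling and response, 5 were lower without overlap (20%) and none higher. The median was -0.32, -0.16 without int library 2 and -0.06 without high library 1 as well. The 5 included Ciita and Cd274, described above. Cxcl9, a T cell attracting chemokine induced by interferon-gamma, stood at 137, 50.7 and 15.3 in the high libraries and 143, 180.3 and 59.1 in the int libraries, and Cxcl10, a related chemokine, at 3206, 1133 and 1329 in the high libraries and 1578, 2252 and 1533 in the int libraries. Both overlapped. Irf1, an early interferon target, and Ifngr1, a chain of the receptor, had log2 fold changes of -0.77 ± 0.73 and -0.29 ± 0.34. The Irf1 value rested on high library 1, at 157 against 829.6 to 1255 in the other 5, and was 0.19 without it. Ifng itself was below the filter, with 2 reads in the high and 11 in the int libraries.

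Among the 37 tested genes of the type I interferon response, 34 had a negative fold change, 4 were lower without overlap (10.8%) and 1 was higher (Ifi27, 2.70%). The 4 became 11 with equal totals and 10 when thinned to equal depth. Over all 13387 genes, the count lower in high rose as well, from 745 to 1022 and 960. The median was -0.73, -0.61 without high library 1, -0.32 without int library 2 and -0.18 without both libraries, and int library 2 was the highest of the 6 for 32 of the 37. Tyk2, a kinase at the type I receptor, stood at 26.3, 41.2 and 23.9 in the high libraries and 89.7, 89.3 and 72.8 in the int libraries. Its groups were well apart, with a log2 fold change of -1.47 ± 0.41 and -1.34 without both libraries. Ifnar2, a chain of that receptor, stood at 39.5, 53.7 and 58.00 in the high libraries and 59.6, 166 and 78.4 in the int libraries, with high library 3 and int library 1 nearly equal. Ifit1bl1, an interferon-induced gene read at low levels, stood at 0, 2.98 and 8.53 in the high libraries and 13.96, 44.7 and 16.4 in the int libraries. Ifi27, an interferon-induced mitochondrial protein, stood at 167, 206 and 159 in the high libraries and 118, 129 and 104 in the int libraries, higher in every high library. Of the 12 tested DNA sensors of the Ifi200 family, Aim2, which forms an inflammasome, stood at 8.77, 22.1 and 20.47 in the high libraries and 29.5, 47.2 and 31.6 in the int libraries. Ifi204 stood at 206, 162 and 135 in the high libraries and 208, 534 and 263 in the int libraries, where high library 1 came within a few counts of int library 1. These were the 2 members without overlap (16.7%), which became 4 with equal totals. The family median was -0.70, -0.95 without high library 1, -0.21 without int library 2 and -0.61 without both, and int library 2 was the highest of the 6 for 9 of the 12.

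Nod2, an intracellular sensor of bacterial muramyl dipeptide (ENSMUSG00000055994.15, chromosome 8, 88647315 to 88688474), was nearly absent from the high libraries. It stood at 1.1, 1.79 and 0.85 in the high libraries and 18.2, 61.9 and 33.2 in the int libraries, from 5 and 286 reads. Its log2 fold change was -3.97 ± 0.75, with a 95% interval of -5.71 to -2.23, and -3.50 without high library 1 and int library 2. DESeq2 called it with an adjusted p of 0.00364, while limma (adjusted p 0.794) and edgeR (0.907) did not. Mb21d1, the cytosolic DNA sensor cGAS, stood at 58.1, 71.6 and 38.4 in the high libraries and 86.96, 166 and 106 in the int libraries. Clec4d, a lectin receptor of myeloid cells, stood at 102, 147 and 183 in the high libraries and 183, 291 and 191 in the int libraries, with high library 3 less than 1 count below int library 1. Of 28 tested genes of pattern recognition, 4 were lower without overlap (14.3%) and none higher, and 7 were lower with equal totals. Their median was -0.59, -0.26 without int library 2 and -0.11 without both libraries.

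In the tumour necrosis factor and NF-kB list, 4 of 32 genes were lower without overlap (12.5%) and none higher. With equal totals, 10 were lower. The median was -0.53, and -0.18 without both libraries. Traf1, an adaptor of tumour necrosis factor receptors that NF-kB induces, stood at 60.3, 90.1 and 60.6 in the high libraries and 134, 203 and 148 in the int libraries, a log2 fold change of -1.20 ± 0.36. Nfkb2, the NF-kB subunit of the noncanonical pathway, stood at 147, 554 and 409 in the high libraries and 705, 737 and 679 in the int libraries. The int libraries were close together for Nfkb2, and all high libraries were lower. Tnf itself overlapped, at 136, 544 and 451 in the high libraries and 415, 1363 and 685 in the int libraries.

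Among chemokines, separated genes lay in both directions. Ccl22, a ligand of CCR4 that attracts regulatory T cells (ENSMUSG00000031779.3, chromosome 8, 94745590 to 94751699), stood at 46.1, 84.1 and 25.6 in the high libraries and 174, 337 and 153 in the int libraries. The groups were well apart, with a log2 fold change of -2.14 ± 0.53, a 95% interval of -3.36 to -0.92 and -1.79 without high library 1 and int library 2. Ccl5, a T cell and eosinophil attractant, stood at 6.58, 84.7 and 69.9 in the high libraries and 121, 260.4 and 102 in the int libraries, and Cxcl16, a ligand of CXCR6, at 262, 434 and 319.8 in the high libraries and 562, 1666 and 583 in the int libraries. Both were lower in every high library. Cxcl12, a stromal chemokine and ligand of CXCR4, stood at 688, 454 and 496 in the high libraries and 387, 177 and 350.1 in the int libraries, and Cxcl13, which draws B cells, at 228, 103 and 153 in the high libraries and 91.3, 99.01 and 87.6 in the int libraries. Both were higher in every high library, although high and int values of Cxcl13 came close. Ccl2, a monocyte attractant, overlapped at 49619, 26154 and 31919.8 in the high libraries and 29047, 18646 and 28159 in the int libraries. Of 27 tested chemokines, 3 were thus lower (11.1%) and 2 higher (7.41%) without overlap. The median was -0.20, -0.40 without high library 1, 0.06 without int library 2 and -0.04 without both. Among 34 cytokines and growth factors, Il10, an anti-inflammatory cytokine, was lower without overlap, at 0, 31.6 and 16.2 in the high libraries and 32.8, 62.4 and 33.8 in the int libraries. High library 2 and int library 1 were close for Il10. Its log2 fold change was -2.35, and -0.53 without high library 1 and int library 2. Vegfc, a lymphatic growth factor, was higher, at 128, 76.4 and 75.9 in the high libraries and 58.5, 21.9 and 52.2 in the int libraries, as was Igf1, at 205, 76.4 and 143 in the high libraries and 64.95, 66.2 and 73.4 in the int libraries. For Igf1, high library 2 and int library 3 were close. Il33, an epithelial and stromal alarmin that acts on eosinophils, overlapped at 487, 328 and 412 in the high libraries and 332, 139 and 298 in the int libraries.

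Shared chains of cytokine receptors were among the genes lower in every high library. Csf2rb, the beta chain shared by the receptors of interleukin 3, interleukin 5 and GM-CSF (ENSMUSG00000071713.6, chromosome 15, 78325752 to 78353847), stood at 68.00, 186 and 177 in the high libraries and 254, 651 and 308 in the int libraries. Its paralog Csf2rb2, the beta chain specific to interleukin 3, stood at 37.3, 39.4 and 33.3 in the high libraries and 54.8, 136 and 59.5 in the int libraries. No high library reached an int library for either gene, with log2 fold changes of -1.49 ± 0.52 and -1.04 ± 0.47. Without high library 1 and int library 2 these were smaller, at -0.62 and -0.64. As near-identical neighbours, the 2 genes can share reads, and the split between them is uncertain. Il2rg, the common gamma chain of lymphocyte cytokine receptors, stood at 129, 456 and 305 in the high libraries and 666, 1308 and 671 in the int libraries, also without overlap. Of 16 tested genes on the list of type 2 and eosinophil cytokine receptors, 4 were lower without overlap (25%) and none higher. The median was -0.71, -0.32 without high library 1 and -0.25 without both libraries. The other 12 overlapped, among them Il1rl1 and Ccr3 with log2 fold changes of 0.67 and 0.72.

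In the class I pathway, which displays cytosolic peptides to CD8 T cells, 20 of 21 tested genes had a negative fold change. Without overlap, 5 were lower (23.8%). Tap2, a subunit of the peptide transporter, stood at 21.9, 119.9 and 58.9 in the high libraries and 123, 242 and 179 in the int libraries. Its log2 fold change was -1.68 ± 0.62, and -0.81 without high library 1 and int library 2. H2-Q6, a nonclassical class I gene with near-identical paralogs, stood at 16.4, 23.9 and 12.8 in the high libraries and 34.9, 60.2 and 24.7 in the int libraries, and its reads may be shared with them. Calr, a chaperone of peptide loading, stood at 101, 792 and 737 in the high libraries and 806, 1307 and 893 in the int libraries, where high library 1 was the lowest by far. The list median was -0.79, -0.44 without high library 1 and -0.15 without both. High library 1 was the lowest of the 6 for 12 of these 21 genes. Of 37 lysosome genes, 2 were lower without overlap (5.41%) and 1 higher (2.70%), shares no larger than those of all genes, and 6 were lower with equal totals. The list median was -0.51, -0.29 without high library 1, -0.15 without int library 2 and -0.02 without both, with high library 1 the lowest of the 6 for 23 genes. Gusb, a lysosomal glucuronidase, stood at 70.2, 242 and 212 in the high libraries and 334, 823 and 269 in the int libraries, and Tfeb, a regulator of lysosome genes, at 1.1, 15.5 and 9.38 in the high libraries and 31.1, 42.1 and 18.98 in the int libraries. Ctsl, a cathepsin, was higher, at 4899, 3103 and 3245 in the high libraries and 2485, 2343 and 2588 in the int libraries.

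**Figure D4:**
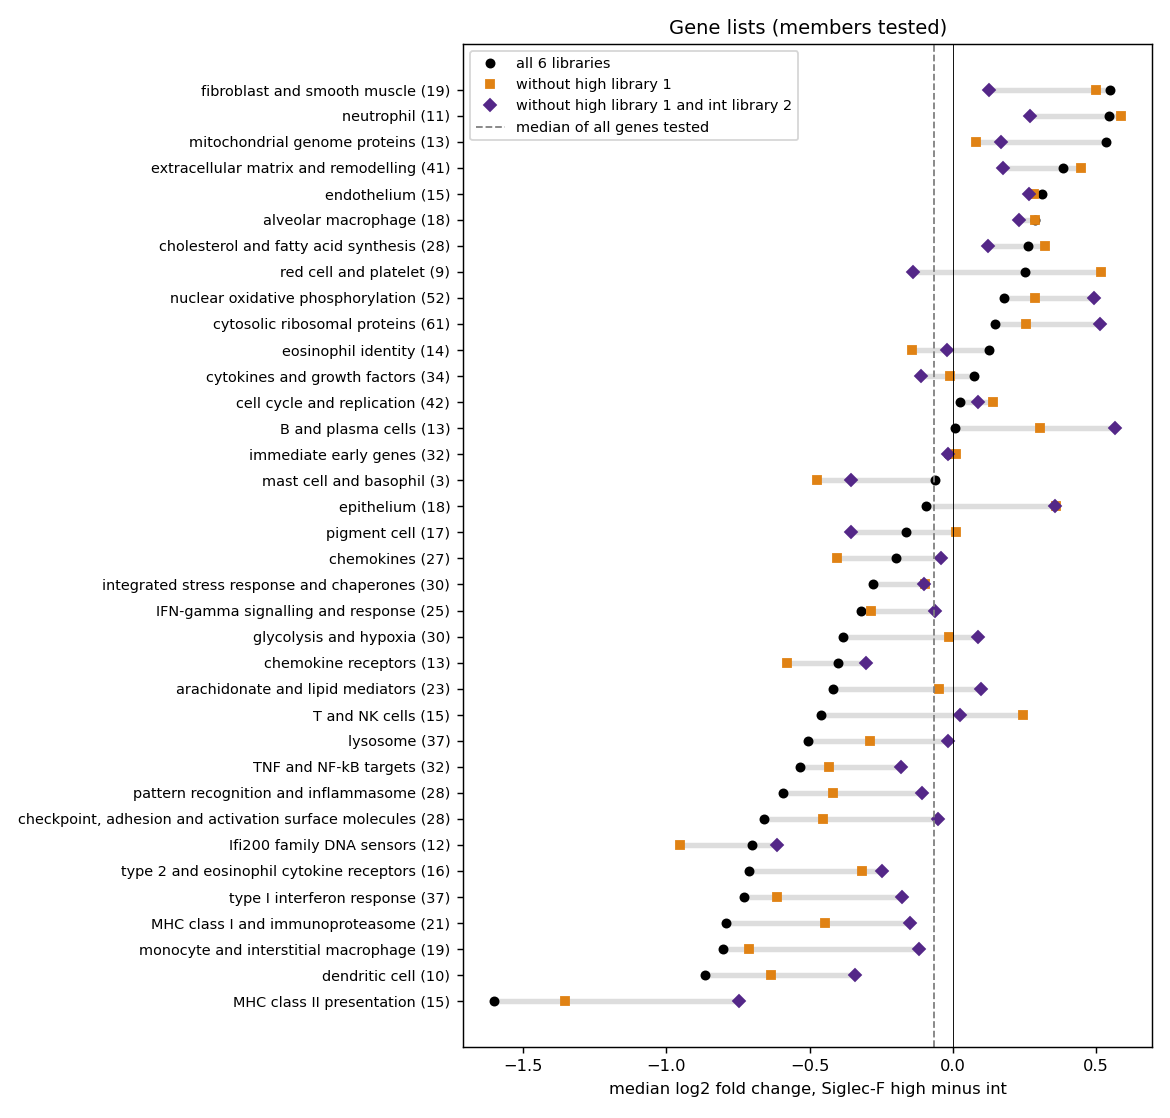
Median log2 fold change (high minus int) of each of 36 gene lists, with the number of members tested, using all 6 libraries (circles), without high library 1 (squares) and without high library 1 and int library 2 (diamonds); the dashed line is the median of all genes. The class II list has the lowest median, -1.60, and lies at -0.75 without both libraries.

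In the other direction, genes for several secreted proteins of the alveolar space and airways were higher in every high library. Chil3, the chitinase-like protein Ym1 made by alveolar macrophages and other type 2 activated myeloid cells (ENSMUSG00000040809.10, chromosome 3, 106147554 to 106167564), stood at 5839, 4709 and 4525 in the high libraries and 1962, 2448 and 2242 in the int libraries. Each group was tight and every high library was well above every int library. Its log2 fold change was 1.18 ± 0.27, with a 95% interval of 0.56 to 1.79, 1.06 without high library 1 and 1.14 without int library 2 as well. The adjusted p was 0.0973 in DESeq2, 0.794 in limma and 0.907 in edgeR. Retnla, the resistin-like protein FIZZ1 of type 2 inflammation (ENSMUSG00000061100.4, chromosome 16, 48842551 to 48844461), stood at 259, 133 and 219 in the high libraries and 49.9, 79.2 and 58.8 in the int libraries, a log2 fold change of 1.66 ± 0.39, again without overlap.

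Ear2, a secreted ribonuclease shared by eosinophils and alveolar macrophages, stood at 568, 375 and 283 in the high libraries and 117, 269 and 125 in the int libraries, a log2 fold change of 1.31 ± 0.43. High library 3 and int library 2 were close. Its paralog Ear1 stood at 115, 90.7 and 214 in the high libraries and 28.4, 19.8 and 90.8 in the int libraries, with high library 2 just below int library 3, so the groups overlapped by 1 library. Reads may be shared among the Ear paralogs. Of 18 tested alveolar macrophage markers, Chil3 and Ear2 were higher and Itgax lower without overlap, with a median of 0.29, and 0.23 without both libraries.

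Scgb1a1, the secretoglobin of airway club cells (ENSMUSG00000024653.2, chromosome 19, 9083636 to 9087958), stood at 5260.2, 4085 and 4612 in the high libraries and 2889, 2081 and 2029 in the int libraries. All high libraries were above all int libraries, with a log2 fold change of 1.01 ± 0.28 and 0.84 without both libraries. Sftpa1, surfactant protein A, stood at 1172, 596 and 697 in the high libraries and 409, 332 and 444 in the int libraries. Its log2 fold change was 1.00 ± 0.34, and 0.59 without both libraries. Scgb3a2, a further airway secretoglobin, stood at 75.7, 66.2 and 104 in the high libraries and 56.4, 33.3 and 40.2 in the int libraries. Epithelial genes thus contributed 5 of 18 members (27.8%) that were higher without overlap (3 with equal totals) and none lower. The list median, however, was -0.09, and 0.36 without high library 1. That library was the lowest of the 6 for 9 of the 18 epithelial markers.

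S100a8 and S100a9, the calprotectin subunits abundant in neutrophils, were both higher in every high library. S100a8 (ENSMUSG00000056054.9, chromosome 3, 90668978 to 90670035) stood at 1597, 407 and 800.0 in the high libraries and 264, 186 and 266 in the int libraries, a log2 fold change of 1.77 ± 0.49 and 1.27 without high library 1. S100a9 stood at 968, 651 and 1554 in the high libraries and 602, 356 and 531 in the int libraries, a log2 fold change of 1.03 ± 0.39. They were 2 of 11 tested neutrophil markers to separate, with a list median of 0.54, and int library 2 was the lowest of the 6 for 8 of the 11. Without that library the median was -0.03.

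**Figure D5:**
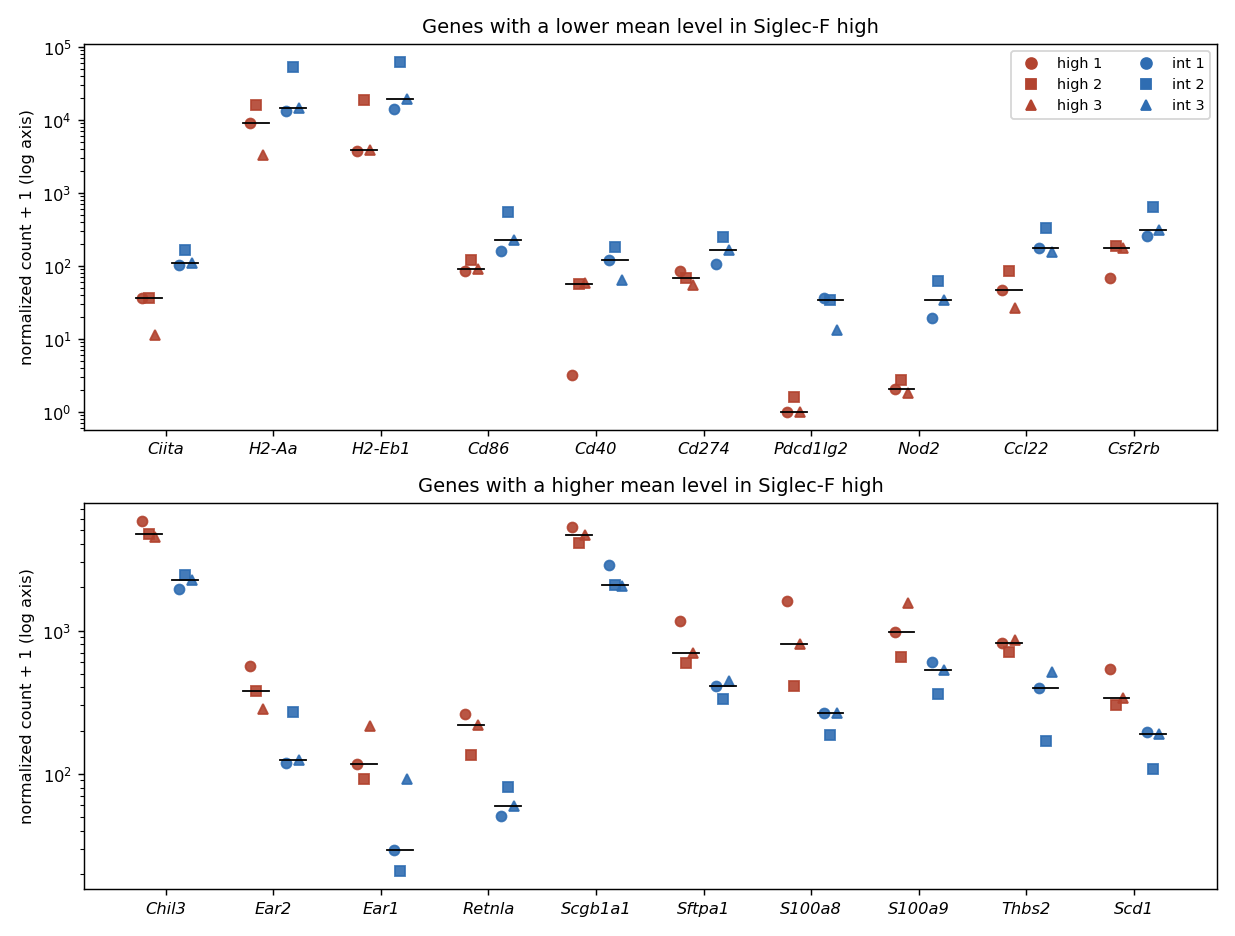
Normalized count plus 1 (log axis) of 10 genes with a lower mean (top) and 10 with a higher mean (bottom) in the high group, 1 point per library, with a bar at each group's median. High libraries (red) lie below int libraries (blue) for Ciita, Nod2 and Ccl22 and above them for Chil3, Retnla and Scgb1a1, while H2-Aa, H2-Eb1 and Ear1 overlap.

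Matrix and stromal genes were higher on median. Of 41 extracellular matrix genes, 7 were higher without overlap (17.1%) and none lower (4 higher with equal totals), with a median of 0.38. Thbs2, a matricellular thrombospondin, stood at 815, 706 and 859 in the high libraries and 399, 169 and 509.9 in the int libraries, and Tnc, the glycoprotein tenascin C, at 216, 146 and 162 in the high libraries and 112, 103 and 66.7 in the int libraries. Both were higher in every high library, with Tnc at 146 in high library 2 against 112 in int library 1. Mmp10, a stromelysin, was low at 30.7, 11.3 and 10.2 in the high libraries and 6.44, 6.32 and 2.85 in the int libraries. Int library 2 was the lowest of the 6 for 25 of the 41 genes, and the median was 0.13 without it. Of 19 fibroblast and smooth muscle markers, 3 were higher without overlap (15.8%), with a median of 0.55, and 0.06 without int library 2. They included Acta2, smooth muscle actin, at 3226, 2189.5 and 2258 in the high libraries and 1994, 1177 and 1651 in the int libraries, and Tagln, transgelin, at 382, 317 and 293 in the high libraries and 231, 212 and 187 in the int libraries.

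Some lipid synthesis genes were higher in every high library. Of 28 genes of cholesterol and fatty acid synthesis, 6 were higher without overlap (21.4%), none lower and 22 overlapped. The 6 became 2 with equal totals and 2 when thinned to equal depth. The median was 0.26, 0.02 without int library 2 and 0.12 without both libraries. Scd1, which desaturates stearate to oleate, stood at 541, 299 and 337 in the high libraries and 193, 107 and 189 in the int libraries. Its log2 fold change was 1.26 ± 0.38, and 0.73 without both libraries. Elovl6, a fatty acid elongase, stood at 66.9, 56.7 and 58.00 in the high libraries and 40.8, 16.9 and 55.7 in the int libraries. For Elovl6, high library 2 and int library 3 were within about 1 count of each other.

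Of 52 nuclear genes of oxidative phosphorylation, 10 were higher without overlap (19.2%) and 2 lower (3.85%). The median was 0.18, 0.29 without high library 1 and 0.49 without both libraries. Cox6c, a subunit of cytochrome c oxidase, stood at 4437, 1965 and 2694 in the high libraries and 1084, 1839 and 1152 in the int libraries, and Ndufb3, a subunit of complex I, at 1036, 358 and 455 in the high libraries and 250.2, 354 and 191 in the int libraries. High library 2 and int library 2 were close for both. None of the 13 mitochondrial genome protein genes separated. Their median was 0.53, and 0.08 without high library 1, the library with the highest mitochondrial share. Of 30 genes of glycolysis and hypoxia, 3 were higher (10%) and 1 lower (3.33%) without overlap. The median was -0.38, -0.01 without high library 1 and 0.09 without both libraries. With equal totals, 1 was higher and 1 lower. The 61 cytosolic ribosomal protein genes had a median of 0.15, and 0.51 without both libraries, with 3 higher (4.92%, below the share of all genes) and none lower without overlap, and 8 higher with equal totals. Rplp2, of the ribosomal stalk, stood at 2700.3, 1809 and 1902 in the high libraries and 748, 1574 and 940.0 in the int libraries, and Rps12, of the small subunit, at 6923, 3315 and 3732 in the high libraries and 2389, 2873 and 1925 in the int libraries. High library 1 was at once the lowest of the 6 for 23 of these ribosomal genes and the highest for 19.

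Among separated genes that averaged 50 or more in the higher group, the largest differences lay outside the lists. Zfp963, a zinc finger gene, stood at 1.1, 21.5 and 0.85 in the high libraries and 114, 95.2 and 93.9 in the int libraries, a log2 fold change of -4.52 ± 0.96. Int values were close together and every high value was far lower. Kmo, kynurenine monooxygenase of tryptophan breakdown, stood at 1.1, 17.9 and 4.26 in the high libraries and 40.3, 103 and 41.8 in the int libraries, and Cd180, a relative of Toll-like receptors on B cells and macrophages, at 3.29, 18.5 and 7.68 in the high libraries and 46.7, 158 and 43.3 in the int libraries. On the higher side, Arxes2, an adipocyte gene, stood at 117, 29.2 and 40.9 in the high libraries and 6.44, 7.16 and 25.3 in the int libraries, a log2 fold change of 2.18 ± 0.75. Pappa, a protease of insulin-like growth factor binding proteins, stood at 237, 37.6 and 40.1 in the high libraries and 21.5, 24.9 and 9.81 in the int libraries, and Cep41, a centrosomal protein, at 372, 64.4 and 61.4 in the high libraries and 16.6, 42.97 and 29.4 in the int libraries. In all 3 genes high library 1 was the highest by far, and without it their log2 fold changes were 1.61, 1.11 and 1.16.

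DESeq2 called 7 genes higher and 4 lower in high. The 4 lower were Nod2 and Pdcd1lg2, described above, 6530402F18Rik at 0, 7.16 and 8.53 in the high libraries and 88.6, 48.9 and 47.4 in the int libraries, and Gm37033 at 18.6, 13.7 and 15.3 in the high libraries and 55.8, 84.3 and 69.6 in the int libraries. Of the 7 higher, 4 (Tspyl5, Gm43417, Gm38330 and 1700049E15Rik) had 50 to 58 reads in high library 1 and none in the other 5. The other 3 were read in every high library. Nrxn3, a synaptic neurexin, stood at 95.4, 8.35 and 9.38 in the high libraries and 0, 0 and 0 in the int libraries, at least 73.4-fold higher against a floor of 3 reads over the int group. That bound rests mostly on high library 1. The limma log2 fold change of Nrxn3 was 4.40 ± 1.14, and 3.30 without that library. Gm6345 stood at 26.3, 11.9 and 7.68 in the high libraries and 0, 0 and 0 in the int libraries, at least 34.8-fold higher on the same floor. Nek5, a kinase of the NIMA family, stood at 36.2, 7.76 and 37.5 in the high libraries and 0, 0.42 and 0 in the int libraries, from 90 reads against 1. The read ratio of Nek5 was 177, with a 95% counting interval of 31.0 to 7070.2. These intervals and floors cover counting error only.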

How the data were processed

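RNA was sequenced from pools of sorted lung cells with a purity above 98% and an RNA integrity number above 6.3, and libraries followed a Cell-seq protocol, per the labels' protocols. The submitters' processing notes name TopHat2 2.1.0, HTSeq, DESeq2 1.10.0 and the build GRCm38. The deposited signal values are gene counts that the authors divided by 1 size factor per library. Values in a column were whole multiples of 1 step (100% of those up to 2000 reads, within 0.05 of a read), and the reads recovered this way set the depth. Whether molecular identifiers were counted and whether counting used strand is not given in the sources used here.

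Of 54670 entries, 63 with a name turned into a date (0.219% of the total), 116 exact duplicates and 130 that repeated another entry's name and values under a different identifier were left out. A further 69 shared a name or identifier. Positions come from GENCODE M21 (GRCm38), which held 99.9% of the identifiers. Genes with a mean of at least 5 over the 6 libraries were tested by limma 3.58.1 (R 4.3.3), applied to log2(value + 1), with a variance trend, two-sided, and the Benjamini-Hochberg adjustment at 0.05 over all of them. Fold changes are on that scale, ± SE with n = 3 per group, and understate the change of low genes. The p-values measure the spread between pools of mice. The fit was also run on simulated reads with the same spread in all libraries. That setting holds no outlying library such as high library 1. Alternatives were other pseudocounts, filters, scalings and variance models, library weights, a replicate block, each library left out in turn, and count models of the recovered reads in edgeR 4.0.16 or DESeq2 1.42.0. Read ratios carry exact 95% binomial intervals.

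The comparison, the 36 gene lists and the rule for naming genes were chosen with earlier results of these data known. The rule took the 12 largest fold changes per direction among genes without overlap that averaged 50 or more in the higher group. It added up to 3 separated members per direction of each list, and a set of eosinophil, interferon and cytokine genes. Not every gene it gives is printed. A list is described by its counts and median, without a test. Within a group, pairs of libraries differed by a chi-square per degree of freedom of 15.3 to 131, so none was a repeat of another. Figures were drawn with matplotlib 3.10.9.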

Additional observations from a re-analysis of the deposited data

How the results depend on the processing

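The count of 0 called genes was the same under all alternatives except 2. limma with estimated library weights called 3531 genes (1658 higher, 1873 lower), but the weights gave high library 3 18.5 and high library 1 0.084, so that 1 library stood for its group, and DESeq2 called 11. With the replicate number as a replicate block 0 genes were called, with 664 at an unadjusted p under 0.05. The labels state no shared source for the numbers, so the block is not a known pairing. The deviations of same-numbered libraries correlated at 0.13, 0.15 and 0.08. For high and int libraries with different numbers the values were -0.16 to -0.017. Deviations were taken from each group's mean, which ties these values to the same-numbered ones, so the contrast is partly built in. Whether same-numbered pools share mice or a day was not tested. The total of 1508 genes without overlap became 2304 to 4523 when 1 library was left out and 4824 without both high library 1 and int library 2, as fewer libraries have to separate. TMM factors gave 678 above and 819 below, and quantile normalization 870 and 697. Of 113 genes named, 104 kept their sign under every alternative. Most of the 113 were named because their groups did not overlap. Leaving out a library cannot change the sign of such a gene, so this count is largely set by the naming rule. Tspyl5, Gm43417, Gm38330 and 1700049E15Rik were at 0 without high library 1, their only library with reads. The other 5 were Siglecf, Ccr3, Prg2, Cxcl10 and Irf1, all genes whose groups overlapped. Siglecf was at 0.036 with quantile normalization, 0.41 with library weights and -0.59 to 0.42 without single libraries. Ccr3 was at -0.18 without both libraries and -0.36 to 1.97 without single ones. Prg2 was at -0.13 with a pseudocount of 0.5, -0.12 with equal totals, -0.026 with TMM factors, -0.18 when thinned and -2.25 to 1.69 without single libraries. Cxcl10 was at 0.037 in edgeR, 0.080 in DESeq2 and -0.52 to 0.23 without single libraries. Irf1 was at 0.040 without both libraries and -1.31 to 0.19 without single libraries. Of 36 list medians, 15 changed sign under at least 1 alternative. Of the 22 below 0, 18 stayed below 0 without high library 1, and 18 without both libraries. Every high library had fewer reads than every int library, and the effect of depth on genes near the filter was not tested beyond thinning.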

Other observations

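Some gene groups that are not described above held separated genes in both directions. Of 42 cell cycle genes, 4 were higher (9.52%) and 1 lower (2.38%) without overlap, against 5.70% and 5.57% of all genes. With equal totals, 1 was higher and 1 lower. Cdk1, the mitotic kinase, was higher, at 3003, 1951 and 1790.2 in the high libraries and 1379, 1061 and 1623 in the int libraries. So was Cdc20, an activator of the anaphase-promoting complex, at 113, 116 and 108 in the high libraries and 79.99, 63.6 and 65.2 in the int libraries. The list median was 0.02. Of 32 immediate early genes, 2 were higher (6.25%) and 3 lower (9.38%) without overlap, with a median of -0.02. Egr1, a growth factor induced transcription factor, stood at 2815, 2123 and 2212 in the high libraries and 1946, 1200.3 and 1892 in the int libraries, and Dusp6, a phosphatase of ERK, at 2974, 1041 and 1338 in the high libraries and 844, 683 and 945 in the int libraries. Hspa1a, the inducible HSP70 chaperone, was lower in every high library, at 622, 474 and 425 in the high libraries and 792, 1226 and 819 in the int libraries, a log2 fold change of -0.89 ± 0.31.

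Of 23 genes of lipid mediators, 4 were higher without overlap (17.4%) and none lower. The list median was -0.42 with all libraries and 0.10 without high library 1 and int library 2. Hpgd, which inactivates prostaglandins, stood at 604, 183 and 246 in the high libraries and 161, 131 and 142 in the int libraries. Ptges, a prostaglandin E synthase, stood at 75.7, 110.4 and 69.9 in the high libraries and 49.4, 48.03 and 49.7 in the int libraries, and Lta4h, the leukotriene A4 hydrolase, at 464, 193 and 176 in the high libraries and 149, 161 and 147 in the int libraries. All 3 high libraries were above all 3 int libraries for each, with high library 1 the highest for Hpgd and Lta4h.

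Markers of B and plasma cells and of endothelium each had 3 members higher without overlap (23.1% and 20%) and none lower. With equal totals, 1 and 2 were higher. Igkc, the kappa light chain, stood at 1848, 3043 and 2259 in the high libraries and 1608, 1716 and 1581 in the int libraries, and Jchain, the joining chain of secreted antibodies, at 97.6, 47.7 and 47.8 in the high libraries and 17.7, 40.9 and 13.9 in the int libraries. Cdh5, the endothelial cadherin, stood at 122, 119.9 and 121 in the high libraries and 68.2, 50.6 and 79.4 in the int libraries, a log2 fold change of 0.89 ± 0.35. The high libraries were within 2 counts of each other for Cdh5, high library 1 included.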
